A study of Mus musculus with 9 samples.

Results

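The 10 genes described here are Fos, Fosb, Fosl1, Fosl2, Jun, Junb, Jund, Egr1, Ier2 and Ier3, which encode the FOS and JUN subunits of the transcription factor AP-1, the zinc finger factor EGR1 and 2 immediate early response proteins. They were chosen by name, as the rows whose symbol equals one of these genes, out of 25175 symbols, and each had 1 row in every library. The choice was made with earlier results of these data known. RNA was sequenced from HL-1 cells, a mouse atrial cardiomyocyte line that was immortalised by simian virus large T antigen expressed from an atrial natriuretic factor promoter. The cells were treated for 24 h with 5 µM ivermectin, with 10 µM importazole or with vehicle, 0.1% DMSO, and each of the 3 groups had 3 libraries. Ivermectin is an antiparasitic drug also used as an inhibitor of nuclear import by importin α/β, and importazole inhibits importin β. All cells were of this 1 line, grown in Claycomb medium. Whether the compounds were also given in DMSO is not in the labels. Nor do they say whether replicate libraries are separate cultures, and the p-values below therefore speak for the spread among these libraries, possibly technical, and for nothing wider.

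Immediate early genes are switched on within minutes of a stimulus, such as serum, stretch or a change of medium, by factors already present in the cell, and their short-lived mRNAs then fall again. FOS and JUN proteins pair through leucine zippers into AP-1 dimers, which bind DNA at AP-1 sites; JUN proteins can also pair with each other, whereas FOS proteins need a partner. EGR1 binds GC-rich sites and is held back by the corepressors NAB1 and NAB2. In heart muscle Fos, Jun and Egr1 are known as early responders to stretch and to hypertrophic stimuli. Because handling of a culture also induces these genes, the spread between libraries of the same group is given beside each comparison.

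The promoters of Fos, Jun, Junb and Ier3 are shown because Fos, Jun and Ier3 passed the test in the ivermectin comparison while Junb did not. Jund also passed, and its promoter is not shown because its RefSeq and GENCODE M21 starts lie 1210 bases apart. Each line runs 5′ to 3′ on the gene's strand, from 250 bases before the RefSeq start (GRCm38.p6) to 20 bases after it, and capitals mark each TGACG motif, each TATAAA box, each CCAAT box and the variant AP-1 site TGACATCA.
Fos: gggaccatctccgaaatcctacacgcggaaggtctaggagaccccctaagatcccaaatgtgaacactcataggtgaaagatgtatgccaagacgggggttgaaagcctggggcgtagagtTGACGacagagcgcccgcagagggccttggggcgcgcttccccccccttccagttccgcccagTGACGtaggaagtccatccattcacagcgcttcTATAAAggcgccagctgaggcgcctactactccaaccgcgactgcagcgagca
Jun: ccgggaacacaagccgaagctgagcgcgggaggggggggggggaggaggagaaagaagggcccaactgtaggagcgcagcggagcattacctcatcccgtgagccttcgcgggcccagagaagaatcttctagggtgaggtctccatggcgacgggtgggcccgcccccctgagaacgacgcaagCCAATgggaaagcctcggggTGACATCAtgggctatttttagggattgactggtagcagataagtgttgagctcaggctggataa
Junb: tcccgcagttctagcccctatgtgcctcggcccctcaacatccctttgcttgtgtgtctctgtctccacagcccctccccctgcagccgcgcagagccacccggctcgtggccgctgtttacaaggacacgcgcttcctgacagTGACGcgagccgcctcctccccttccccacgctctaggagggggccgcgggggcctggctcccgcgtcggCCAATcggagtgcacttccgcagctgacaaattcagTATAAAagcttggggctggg
Ier3: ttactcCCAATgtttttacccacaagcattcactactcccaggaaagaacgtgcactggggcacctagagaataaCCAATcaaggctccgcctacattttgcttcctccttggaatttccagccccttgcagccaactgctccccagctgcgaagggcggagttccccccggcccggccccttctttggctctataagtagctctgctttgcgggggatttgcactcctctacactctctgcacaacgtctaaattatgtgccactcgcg
The windows lie at chr12:85473640-85473909 on the plus strand for Fos, chr4:95052203-95052472 on the minus strand for Jun, chr8:84978729-84978998 on the minus strand for Junb and chr17:35821463-35821732 on the plus strand for Ier3. Fos held TGACG, the first part of a cyclic AMP response element, at 129 and 66 bases before the start and TATAAA at 33. Jun held TGACATCA, a variant AP-1 site, at 45 bases before the start. Junb held TGACG at 106 bases before the start and TATAAA at the RefSeq start itself. The GENCODE M21 start of Junb lies 30 bases downstream of that start and the one of Ier3 29 bases upstream, so positions in these windows hold for the RefSeq starts, whereas for Fos and Jun both annotations give the same base. CCAAT stood in the Jun, Junb and Ier3 windows and not in that of Fos. The complete CArG box, TGACGTCA and TGACTCA had no exact match in these 4 windows. Sequence more than 250 bases before the start was not searched, so such sites may lie further upstream. Searched on both strands of all 32851 RefSeq promoter windows, which run to 50 bases after the start, TGACG occurred in 20.8%, TGACATCA in 3.62%, TATAAA in 13.6% and CCAAT in 37.4%. TGACTCA occurred in 5.20%, the CArG box in 1.63% and TGACGTCA in 1.79%, the last of which contains TGACG. The table holds 7 of the 10 genes. A match is a description of the letters and was not tested as a binding site.

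Short mRNA life in this family is known to depend on AU-rich elements of the 3′ untranslated region (UTR), built from ATTTA in the DNA. The densest 30-base window is shown for the same 4 genes, with ATTTA in capitals, from GENCODE M21 on GRCm38.
Fos: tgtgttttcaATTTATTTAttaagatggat
Jun: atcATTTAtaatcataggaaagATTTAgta
Junb: atatatttgtgtATTTAacagggaggggag
Ier3: taattaatATTTAtgtATTTAtgtatatcc
The windows lie at chr12:85477101-85477130 on the plus strand, chr4:95049207-95049236 on the minus strand, chr8:84977126-84977155 on the minus strand and chr17:35822485-35822514 on the plus strand. Ier3 held 5 ATTTA in a 3′ UTR of 613 bases and Fos held 4 in 815 bases. Jun also held 4, in 1233 bases, and Junb held 2 in 485 bases. Fosl2 had 8, spread over 4653 bases, and Egr1 had 2, while Jund, Fosb and Fosl1 had 1 each. Ier2 had 0. The median of 10235 tested genes was 1. Per kilobase of 3′ UTR the count was 8.16 for Ier3, 4.91 for Fos, 4.12 for Junb and 3.24 for Jun, against a median of 1.28 over the tested genes. With 1 transcript taken per gene, those of Jun, Junb, Jund and Ier2 had a single exon, as in 2.28% of the tested genes.

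The deposited values are FPKM, which set fragments against transcript length and library total, and sequencing depth could not be read from them. The libraries summed to between 365259 and 416748 FPKM, with 11055 to 11200 genes at 1 FPKM or more in each. Vehicle 2 and ivermectin 3 stood apart in listing the abundant transcript Yam1 at 0, and values without both are given where they change a call. The labelled cell type was met by its markers: the 7 cardiomyocyte genes, Actc1 and Myl7 among them, were all measured, and their summed level was 5830 to 6364 FPKM in ivermectin, 6316 to 6755 FPKM in importazole and 6649 to 7628 FPKM in vehicle. Of 4 macrophage and leukocyte markers, 3 were listed. They summed to 0.885 to 2.29 FPKM in ivermectin, 1.09 to 1.78 FPKM in importazole and 0.796 to 1.63 FPKM in vehicle. Ptprc and Csf1r were under 1 FPKM throughout, and Cd68, at 0.745 to 2.18 FPKM over the 9 libraries, made up most of the sum. Endothelial markers summed to 7.95 to 8.27 FPKM in ivermectin, 9.16 to 9.45 FPKM in importazole and 9.04 to 10.3 FPKM in vehicle, with Cdh5 and Tek under 1 FPKM. Most of this sum was Kdr, at 7.15 to 8.54 FPKM over the 9 libraries, and Pecam1 was at 0.510 to 1.28 FPKM. Of 6 fibroblast markers, Col1a2, Dcn, Pdgfra and Lum were under 1 FPKM in every library, and the summed level, almost all of it Ddr2, was 36.3 to 38.3 FPKM in ivermectin, 33.7 to 36.6 FPKM in importazole and 23.4 to 26.4 FPKM in vehicle. The part of these marker differences in the results below was not tested.

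**Figure D1:**
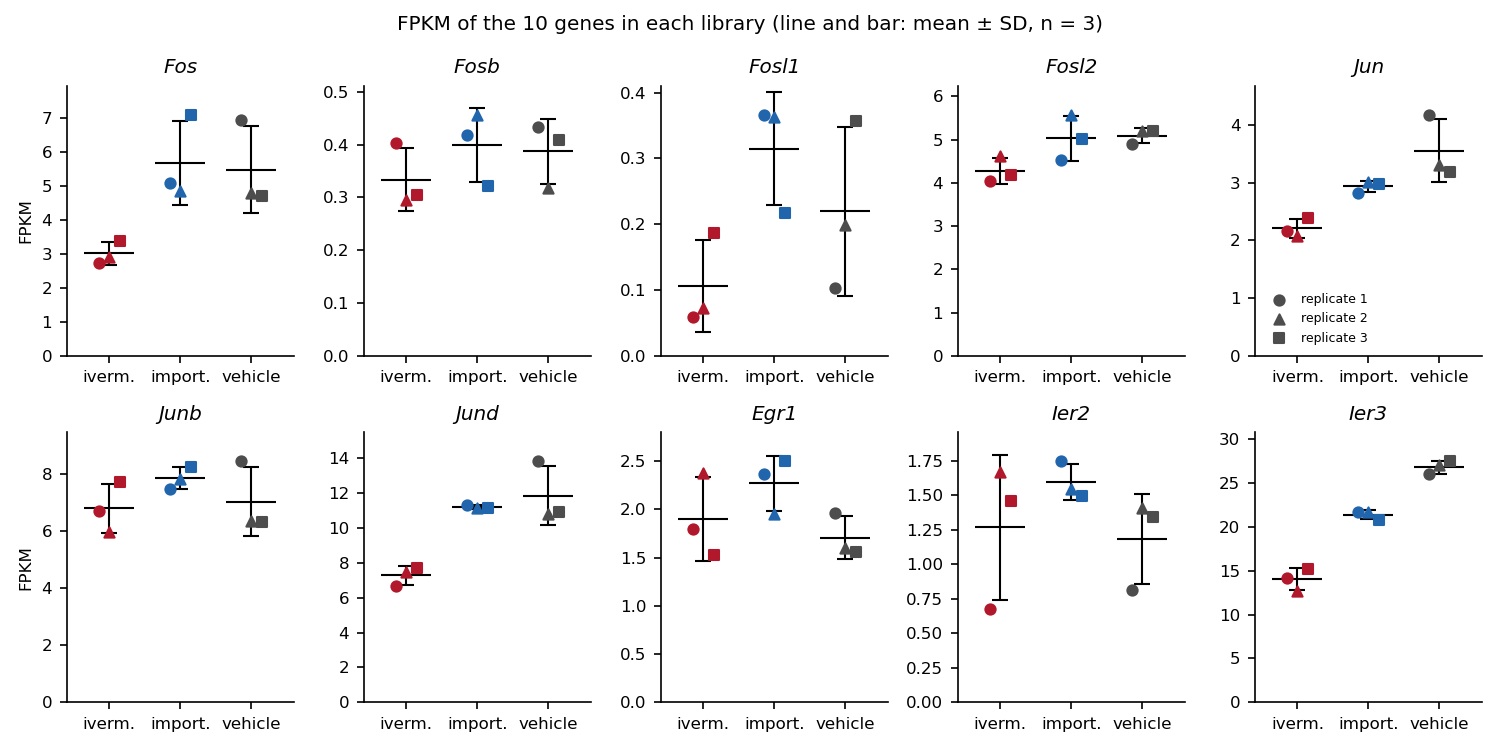
FPKM of each of the 10 genes in every library, with a linear axis per gene that starts at 0 and groups in the order ivermectin, importazole and vehicle. Each point is a library, the long line the mean and the bar the SD of 3 libraries. The 3 ivermectin libraries lie below the 3 vehicle libraries for Fos, Fosl2, Jun, Jund and Ier3, and Fosb and Fosl1 stay under 1 FPKM.

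Fos, Jun, Jund and Ier3 fell in cells treated with ivermectin, to between 52.3% and 62.1% of their mean vehicle FPKM, while Junb, Egr1 and Ier2 did not pass the test. Of the 10 genes, 8 reached 1 FPKM in at least 3 libraries and were tested, and 4 of these 8 fell and 0 rose at a limma adjusted p under 0.05. Over all 11337 genes tested, 2.52% were called lower in this comparison and 1.79% higher, 4.31% in all. Since the family was chosen with earlier results of these data known, its counts beside these shares are a description. In the tested genes of the family the median change was -0.35 on the log2(FPKM + 1) scale, against 0.01 over all genes. All 3 ivermectin libraries lay below all 3 vehicle libraries for 5 of the 8, and for 12.2% of all genes tested. In bulk RNA, fewer cells that express a gene and less RNA per cell cannot be told apart.

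Fos encodes the founding FOS subunit of AP-1 and lies at chr12:85473890-85477273 on GRCm38, plus strand, with 4 exons. It had 2.74, 2.91 and 3.38 FPKM in the ivermectin libraries, 5.09, 4.84 and 7.08 FPKM in the importazole libraries, and 6.94, 4.77 and 4.68 FPKM in the vehicle libraries. All 3 ivermectin libraries were below all others, and vehicle 1 and importazole 3 stood above the rest of their groups. Mean Fos was 3.01 ± 0.335 FPKM in ivermectin and 5.47 ± 1.28 FPKM in vehicle (SD, n = 3 each). The log2 change was -0.67 with a standard error (SE) of 0.155 and a 95% confidence interval of -1.02 to -0.33 (limma adjusted p = 0.0354). This call ended without vehicle 1, where the change was -0.52 (limma adjusted p = 0.0985), and also without vehicle 2, without any 1 of the ivermectin libraries or without importazole 1, which enters through the shared spread, with limma adjusted p of 0.0541 to 0.0987 over those 6 fits. It also ended with no filter on low values (limma adjusted p = 0.125), without both libraries that list Yam1 at 0 (0.0922) and with only the 6 libraries compared (0.0516).

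The other FOS genes did not pass. Fosl2, which encodes FRA-2, an AP-1 subunit of slower kinetics, had 4.04, 4.62 and 4.18 FPKM in ivermectin and 4.89, 5.19 and 5.19 FPKM in vehicle. The groups did not overlap, and the log2 change was -0.21 (SE 0.0892, 95% interval -0.40 to -0.01, limma adjusted p = 0.220). Fosb and Fosl1, which encode FosB and FRA-1, stayed under 1 FPKM in all 9 libraries and were not tested. Fosb was at 0.295 to 0.403 FPKM in ivermectin, 0.321 to 0.456 FPKM in importazole and 0.318 to 0.433 FPKM in vehicle. Fosl1 was at 0.0598 to 0.187 FPKM in ivermectin, 0.217 to 0.366 FPKM in importazole and 0.104 to 0.357 FPKM in vehicle. Ccdc85b, which overlaps Fosl1 on the opposite strand, was at 2.29 to 9.87 FPKM over the 9 libraries. The use of strand is not known, so reads of Fosl1 and Ccdc85b cannot be told apart. The ivermectin and vehicle ranges of both genes overlapped.

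Of the JUN genes, Jun and Jund fell and Junb did not pass. Jun, the founding JUN subunit (chr4:95049034-95052222, minus strand), had 2.16, 2.08 and 2.39 FPKM in ivermectin and 4.17, 3.31 and 3.19 FPKM in vehicle, with no overlap. Its log2 change was -0.50 (SE 0.101, 95% interval -0.72 to -0.28, limma adjusted p = 0.0198). The call ended without vehicle 1 (log2 change -0.41, limma adjusted p = 0.0667), without ivermectin 1 (limma adjusted p = 0.0582) and without ivermectin 2 (limma adjusted p = 0.0639). It also ended with no filter (limma adjusted p = 0.0620), without both libraries that list Yam1 at 0 (0.0724) and with only the 6 libraries compared (0.0631). Junos, which overlaps a Jun exon on the opposite strand, was at 0.292 to 1.10 FPKM over the 9 libraries. Its log2 change was 0.08 (limma adjusted p = 0.871), and since no source used here gives the use of strand, reads of Jun and Junos cannot be told apart.

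Jund, whose JUN protein is known as the subunit most present in unstimulated cells, lies at chr8:70698949-70700616 on the plus strand. It had 6.68, 7.47 and 7.69 FPKM in the ivermectin libraries, 11.3, 11.1 and 11.2 FPKM in the importazole libraries and 13.8, 10.8 and 10.9 FPKM in the vehicle libraries. Every ivermectin library was below every other one. Mean Jund was 7.28 ± 0.532 FPKM in ivermectin and 11.8 ± 1.69 FPKM in vehicle (SD, n = 3 each), and the log2 change was -0.63 (SE 0.0968, 95% interval -0.84 to -0.41, limma adjusted p = 0.00424). With each of the 9 libraries left out in turn the change stayed between -0.68 and -0.52, with limma adjusted p of at most 0.0212. A transcript that overlaps Jund on the opposite strand, Gm11175, was not analysed here. With the use of strand unknown, reads of Jund and Gm11175 cannot be told apart either.

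Junb (chr8:84974484-84978718, minus strand), whose protein can oppose JUN at AP-1 sites, had 6.69, 5.98 and 7.71 FPKM in ivermectin, 7.49, 7.83 and 8.26 FPKM in importazole and 8.44, 6.34 and 6.33 FPKM in vehicle. The ivermectin and vehicle ranges overlapped, and the log2 change was -0.04 (95% interval -0.30 to 0.22, limma adjusted p = 0.877). Within the sum of the 3 JUN genes per length, Junb made up 41.7% ± 2.72 in ivermectin, 35.7% ± 1.14 in importazole and 31.3% ± 0.569 in vehicle (SD, n = 3 each). Jund made up 44.8% ± 2.88 in ivermectin, 50.9% ± 1.28 in importazole and 52.8% ± 0.603 in vehicle. The summed JUN level was 16.3 ± 1.31 FPKM in ivermectin, 22.0 ± 0.378 FPKM in importazole and 22.4 ± 3.44 FPKM in vehicle. These shares follow from the levels above and were given no test of their own.

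Egr1, a zinc finger factor of the immediate early response on chromosome 18, had 1.80, 2.38 and 1.53 FPKM in ivermectin, 2.36, 1.95 and 2.50 FPKM in importazole, and 1.96, 1.60 and 1.56 FPKM in vehicle. Libraries of the 3 groups overlapped, and the log2 change for ivermectin against vehicle was 0.09 (95% interval -0.19 to 0.38, limma adjusted p = 0.726). Ier2, a nuclear protein induced by growth factors, had 0.676, 1.67 and 1.46 FPKM in ivermectin, 1.75, 1.55 and 1.50 FPKM in importazole, and 0.811, 1.41 and 1.34 FPKM in vehicle. Its lowest library was replicate 1 in both ivermectin and vehicle, and the log2 change for ivermectin against vehicle was 0.04 (95% interval -0.35 to 0.43, limma adjusted p = 0.931).

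Ier3, which encodes the stress-induced survival protein IEX-1 (chr17:35821684-35822923, plus strand), was the most abundant of the 10 genes and had the largest fall among those tested. It had 14.1, 12.7 and 15.2 FPKM in the ivermectin libraries, 21.7, 21.7 and 20.8 FPKM in the importazole libraries, and 26.0, 27.0 and 27.4 FPKM in the vehicle libraries. The 3 groups did not overlap, with ivermectin lowest and vehicle highest. The log2 change for ivermectin against vehicle was -0.89 (SE 0.0727, 95% interval -1.05 to -0.73, limma adjusted p = 5.39e-05), and it stayed between -0.95 and -0.83 with each library left out in turn. Counted from the lowest log2 change of the 11337 genes, Ier3 was at rank 34, Fos at 60, Jund at 77 and Jun at 138.

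**Figure D2:**
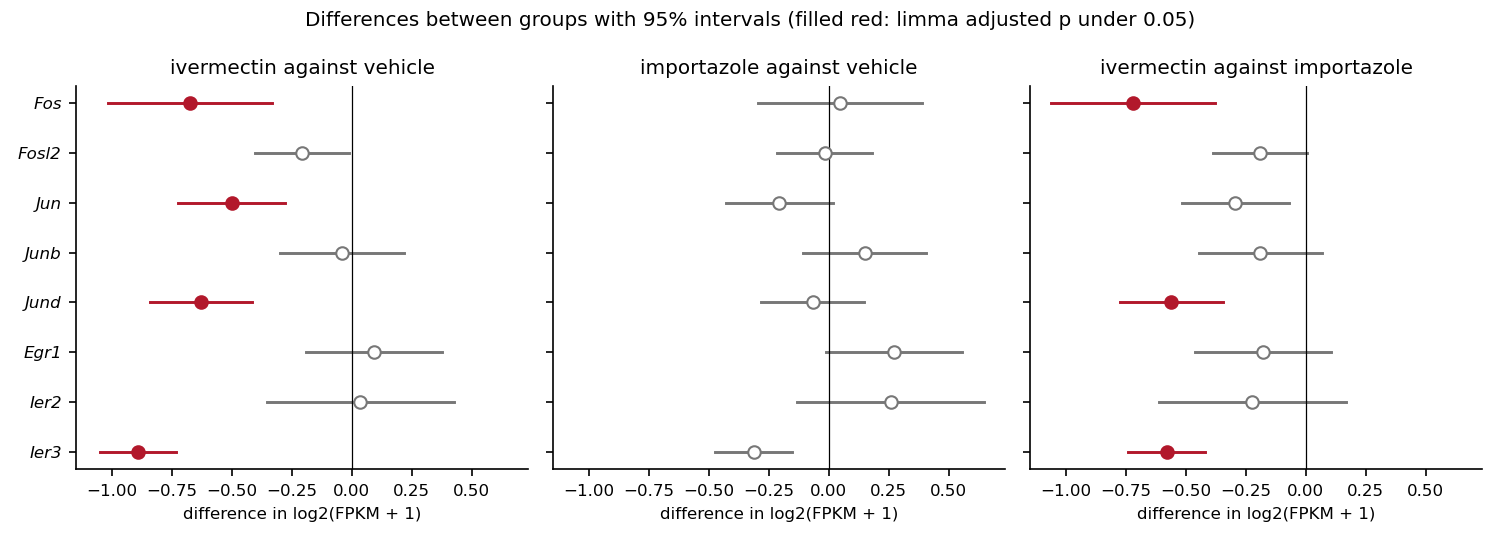
Difference in log2(FPKM + 1) of the 8 tested genes with 95% confidence intervals, for ivermectin against vehicle, importazole against vehicle and ivermectin against importazole. Filled points passed a limma adjusted p of 0.05: Fos, Jun, Jund and Ier3 against vehicle, and Fos, Jund and Ier3 against importazole, all with ivermectin lower.

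In cells treated with importazole 0 of the 8 tested genes passed the limma test against vehicle, with 1, Ier3, at an unadjusted p under 0.05. In this comparison 0.565% of all genes tested were called lower and 1.69% higher, 2.26% in all, and 15.8% had an unadjusted p under 0.05. Mean Ier3 was 21.4 ± 0.502 FPKM in importazole and 26.8 ± 0.741 FPKM in vehicle (SD, n = 3 each), 79.8% of vehicle. Its log2 change was -0.31 (SE 0.0727, 95% interval -0.47 to -0.15, limma adjusted p = 0.0549). Ier3 passed after quantile normalization (limma adjusted p = 0.0332), after median-of-ratios scaling (0.0317), with a filter at 5 FPKM (0.0414), with only the 6 libraries compared (0.0332), without ivermectin 2 (0.0425) and without ivermectin 3 (0.0306). It thus passed in 2 of 9 fits that left out a library and in 4 of 10 other alternatives. In the rest it did not pass, with limma adjusted p up to 0.177 and 0.145 respectively.

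Jun in importazole, at 2.82, 3.01 and 2.97 FPKM, lay below all vehicle libraries, with a log2 change of -0.21 (95% interval -0.43 to 0.02, limma adjusted p = 0.357). Ier2 in importazole lay above all vehicle libraries, with a log2 change of 0.26 (95% interval -0.13 to 0.65, limma adjusted p = 0.519). Over all genes tested, 7.07% had every importazole library below every vehicle library and 16.5% had every one above, beside 2 and 1 of the 8 family genes. Mean Fos was 5.67 ± 1.23 FPKM in importazole and 5.47 ± 1.28 FPKM in vehicle, and the interval of its log2 change was -0.30 to 0.39 (limma adjusted p = 0.920). The log2 change was -0.07 for Jund (95% interval -0.28 to 0.15, limma adjusted p = 0.791) and 0.15 for Junb (-0.11 to 0.41, limma adjusted p = 0.582). For Egr1 the change was 0.27 (95% interval -0.01 to 0.55, limma adjusted p = 0.335) and for Fosl2 -0.02 (-0.21 to 0.18, limma adjusted p = 0.952). For Fos, Jund and Ier3 the importazole interval did not overlap the ivermectin interval against vehicle, whereas for Jun the intervals overlapped. Both sets of intervals share the vehicle libraries, and the direct comparison of the compounds follows.

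Set directly against importazole, Fos, Jund and Ier3 were lower in ivermectin, 3 of the 8 tested genes, and 0 were higher. Over all genes 2.71% were called lower and 0.714% higher in this comparison, 3.42% in all. The compounds are not structural relatives and their doses differ, so the comparison holds for 5 µM ivermectin and 10 µM importazole only. The log2 difference was -0.72 for Fos (SE 0.155, 95% interval -1.06 to -0.38, limma adjusted p = 0.0306). It was -0.56 for Jund (SE 0.0968, 95% interval -0.77 to -0.35, limma adjusted p = 0.00988) and -0.58 for Ier3 (SE 0.0727, 95% interval -0.74 to -0.42, limma adjusted p = 0.00108). The calls of Jund and Ier3 held in all 9 fits that left out a library. That of Fos ended without ivermectin 1 (limma adjusted p = 0.103), without ivermectin 2 (0.0850) or without any 1 of the importazole libraries, and without importazole 3 the difference was -0.58 (limma adjusted p = 0.106). It also ended with no filter (limma adjusted p = 0.116) and when both libraries listing Yam1 at 0 were left out (0.0632). Jun, with no overlap between these groups either, had a log2 difference of -0.29 (95% interval -0.52 to -0.07, limma adjusted p = 0.144). All 3 ivermectin libraries were below all 3 importazole libraries for 4 of the 8 genes, and for 16.1% of all genes tested. Both comparisons against vehicle share the vehicle libraries, and those of ivermectin share the ivermectin libraries, so they are not independent.

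Within groups, Fos, Ier2 and Junb varied more between libraries than most genes of like level. The residual SD of log2(FPKM + 1) was 0.226 for Fos, above 87.7% of the 1226 genes within 0.25 log2 units of its level, whose median was 0.132. That of Ier2 was 0.248, above 76.9% of 869 such genes. For Junb it was 0.157, above 67.9% of 1278 such genes, whose median was 0.126. Egr1 was at 0.158, against a median of 0.159 for genes of like level. Jund at 0.120 stood at its median of 0.121. Jun at 0.106, Fosl2 at 0.0893 and Ier3 at 0.0749 were below theirs, of 0.145, 0.132 and 0.106. The median over the 8 genes was 0.138, against 0.120 over all genes tested. After median-of-ratios scaling the median over the 8 genes was 0.114, and after quantile normalization 0.116.

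**Figure D3:**
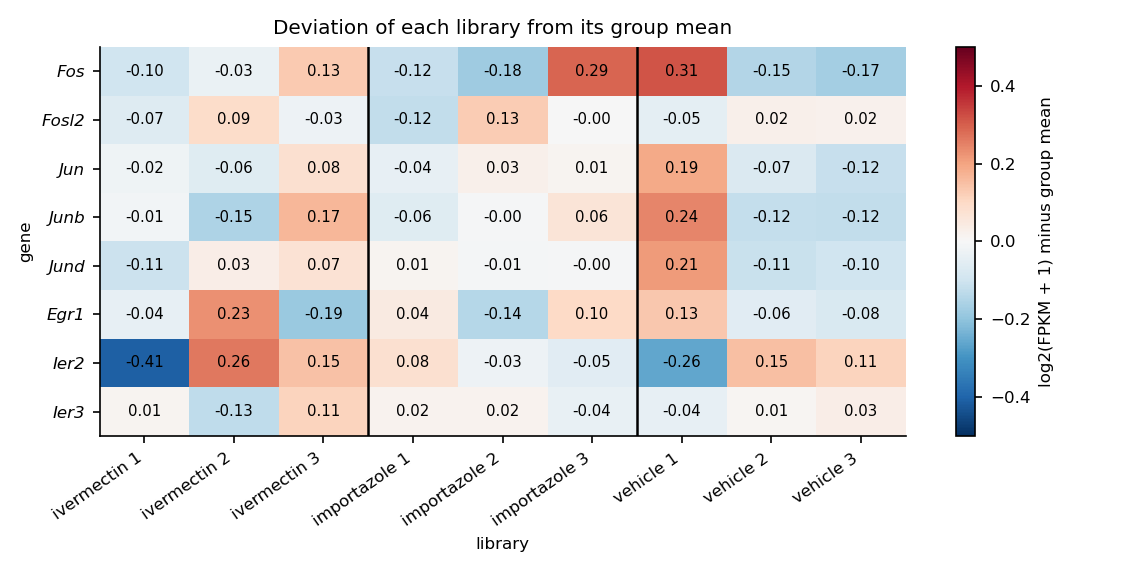
Deviation of each of the 8 tested genes from its group mean in log2(FPKM + 1), by library. Vehicle 1 lies above its group mean for Fos, Jun, Junb, Jund and Egr1 and below it for Ier2, and importazole 3 lies above it for Fos.

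In vehicle, Fos, Jun, Junb, Jund and Egr1 were each highest in replicate 1. There Fos lay 0.31 log2 units above its group mean, Junb 0.24, Jund 0.21, Jun 0.19 and Egr1 0.13, while Ier2 was at -0.26. The median gene of that library lay 0.05 log2 units above its group mean, and the part of a shift of all genes in these deviations was not tested. In ivermectin, Fos, Jun, Junb and Jund were highest in replicate 3, with Fos 0.13 log2 units above its group mean. Importazole 3 was highest for Fos, Junb and Egr1, with Fos at 0.29. The labels record no handling or harvest order, so the part of handling in this spread was not tested.

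Per length, the order of the levels in vehicle was Ier3, Jund, Junb, Fos, Fosl2, Jun, Egr1, Ier2, Fosb and Fosl1. Junb and Fos, Fos and Fosl2, and Fosb and Fosl1 were neighbours whose library ranges overlapped. Importazole had the same order of means. In ivermectin Fosl2 stood above Fos and their ranges did not overlap, whereas Jund overlapped Junb. Fosl2 made up 55.4% ± 3.34 of the summed FOS family level in ivermectin, 44.3% ± 5.02 in importazole and 46.0% ± 5.55 in vehicle (SD, n = 3 each). Fos made up 38.9% ± 2.76 in ivermectin, 49.4% ± 6.51 in importazole and 48.6% ± 6.58 in vehicle. None of the 10 genes was among the most abundant: the level of Ier3 was above that of 59.6% of tested genes in ivermectin and 77.4% in vehicle, and that of Fos above 17.6% in ivermectin and 32.5% in vehicle.

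Around these genes, 113 others in 6 lists were examined: dimer partners, other EGR genes and EGR corepressors, further immediate early genes, feedback brakes, upstream factors and classic targets. The lists, too, were chosen with earlier results of these data known, so their counts beside all genes are a description. Of the 89 tested, 12 fell and 1 rose in ivermectin against vehicle at a limma adjusted p under 0.05, and 0 changed in importazole against vehicle. Over all genes tested, 2.52% fell and 1.79% rose in ivermectin against vehicle, and 2.26% changed in importazole against vehicle. Against importazole, 13 of the 89 were lower and 0 higher in ivermectin, where 2.71% and 0.714% of all genes were. These shares are the background for the counts of each list below, and 46.7% of all genes had a log2 change below 0 in ivermectin against vehicle, with a median of 0.01. The first of these counts, 13 in all, was 5 when both libraries listing Yam1 at 0 were left out and 6 without vehicle 1. It was 7 without vehicle 2, and 8 without vehicle 3 or without ivermectin 2. Ctgf and Vim kept their calls against vehicle under every alternative run, whereas Jdp2, Phlda1, Gadd45b, Per1, Spred2, Srf and Mapk7 lost theirs when both Yam1 libraries were left out.

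Among 8 tested AP-1 dimer partners, 1 rose and 1 fell in ivermectin against vehicle. Jdp2, whose protein pairs with JUN proteins and represses AP-1 sites, was the one that rose, to 6.91 ± 0.937 FPKM in ivermectin, against 6.16 ± 0.544 FPKM in importazole and 4.52 ± 0.538 FPKM in vehicle (SD, n = 3 each). It changed by 0.52 log2 units (limma adjusted p = 0.0249), and the call ended without vehicle 2, vehicle 3, ivermectin 1 or ivermectin 2 (limma adjusted p up to 0.0848). The EGR corepressor genes Nab1 and Nab2 did not pass, with means of 26.4 and 5.05 FPKM in ivermectin, 31.6 and 5.98 FPKM in importazole and 34.2 and 6.21 FPKM in vehicle.

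Of 28 tested further immediate early genes, 5 fell and 0 rose in ivermectin against vehicle, with a median log2 change of -0.17. Phlda1, a pleckstrin-like early gene, was at 3.19 ± 0.233 FPKM in ivermectin, 6.63 ± 0.439 FPKM in importazole and 5.32 ± 0.685 FPKM in vehicle. Its log2 change was -0.59 against vehicle (limma adjusted p = 0.00764, or 0.0724 without both libraries that list Yam1 at 0) and -0.86 against importazole (limma adjusted p = 5.91e-04). Gadd45b, a stress sensor of the MAP kinase pathway, was at 3.46 ± 0.502 FPKM in ivermectin, 6.99 ± 0.617 FPKM in importazole and 5.52 ± 0.542 FPKM in vehicle. It changed by -0.55 log2 units against vehicle (limma adjusted p = 0.0180), a call that ended without vehicle 1, vehicle 2 or ivermectin 3 (up to 0.0682), and by -0.84 against importazole (limma adjusted p = 0.00136). Ctgf, a secreted matrix protein gene, was at 7.44 ± 1.11 FPKM in ivermectin, 11.5 ± 0.631 FPKM in importazole and 13.0 ± 0.726 FPKM in vehicle. It changed by -0.74 log2 units against vehicle (limma adjusted p = 0.00180), and that call held with each library left out. Per1, a clock gene with an immediate early response, was at 4.46 ± 0.417 FPKM in ivermectin, 5.81 ± 0.204 FPKM in importazole and 6.35 ± 0.255 FPKM in vehicle. It changed by -0.43 log2 units against vehicle (limma adjusted p = 0.0159), and the call ended without vehicle 1 or vehicle 3 (up to 0.0598).

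**Figure D4:**
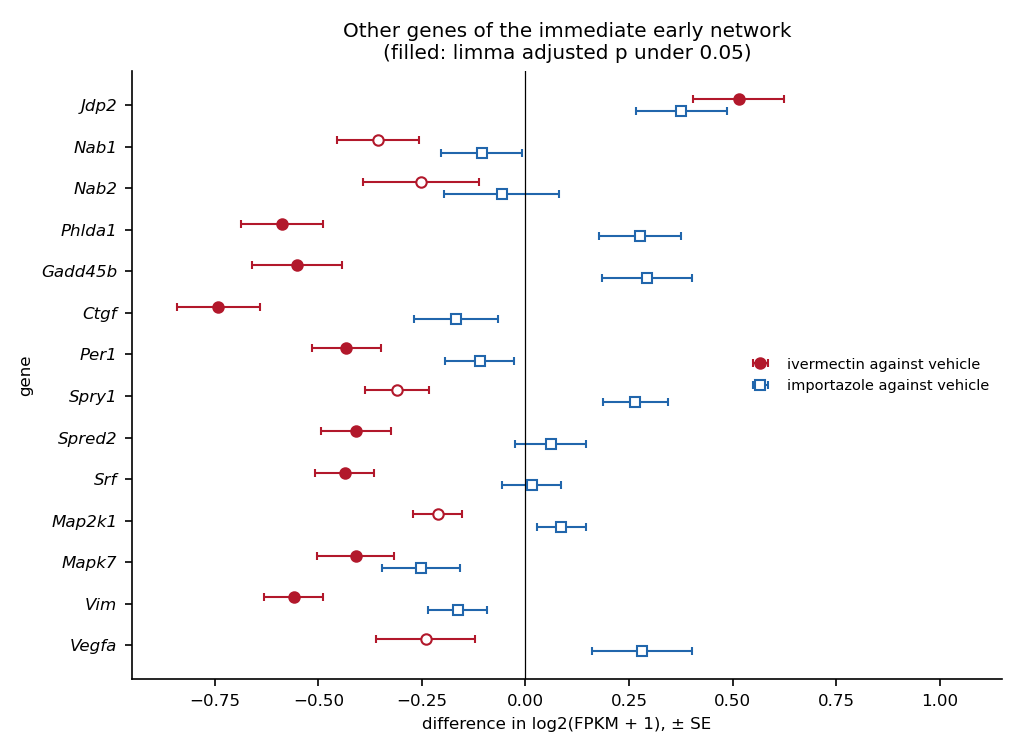
Difference in log2(FPKM + 1) with SE for 14 named genes of the 6 lists, for ivermectin against vehicle and importazole against vehicle. Filled points passed a limma adjusted p of 0.05. Phlda1, Gadd45b, Spry1, Spred2, Srf, Map2k1 and Vegfa lie on opposite sides of 0 for the compounds, and Jdp2 lies above 0 for both. No importazole point passed, and the importazole bars of Spred2 and Srf cross 0.

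The 14 tested feedback brakes were genes of phosphatases and of Sprouty and Spred proteins, which restrain kinase signalling, and Zfp36, Zfp36l1 and Zfp36l2, whose proteins bind AU-rich elements and promote mRNA decay. In ivermectin against vehicle 2 of the 14 fell, beside 2.52% of all genes, and all 14 had a log2 change below 0, beside 46.7% of all genes, with a median of -0.19 against 0.01. Spred2, a brake on RAS signalling to ERK, was at 6.50 ± 0.649 FPKM in ivermectin, 9.37 ± 0.618 FPKM in importazole and 8.93 ± 0.210 FPKM in vehicle. It changed by -0.41 log2 units against vehicle (limma adjusted p = 0.0226), and the call ended without any 1 of the vehicle libraries, ivermectin 2 or ivermectin 3 (up to 0.0753). Spry1, another brake on receptor tyrosine kinase signalling, was at 4.91 ± 0.381 FPKM in ivermectin, 7.80 ± 0.189 FPKM in importazole and 6.32 ± 0.213 FPKM in vehicle, with a log2 difference of -0.58 for ivermectin against importazole (limma adjusted p = 0.00196).

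Among 28 tested upstream factors and kinases, 2 fell in ivermectin against vehicle. Srf, the serum response factor that switches on Fos and Egr1 through CArG boxes, fell to 21.5 ± 1.46 FPKM in ivermectin, against 29.7 ± 1.43 FPKM in importazole and 29.4 ± 1.26 FPKM in vehicle. Its log2 change was -0.44 (limma adjusted p = 0.00603), and the call ended without both libraries that list Yam1 at 0 (limma adjusted p = 0.0609). Mapk7, which encodes ERK5, was at 8.09 ± 0.484 FPKM in ivermectin, 9.15 ± 0.549 FPKM in importazole and 11.1 ± 1.32 FPKM in vehicle, a difference of -0.41 log2 units from vehicle (limma adjusted p = 0.0347) that lost its call in 7 of 9 fits that left out a library (up to 0.115). Map2k1, the kinase above ERK, passed in the direct comparison, at 23.0 ± 0.651 FPKM in ivermectin and 28.5 ± 0.310 FPKM in importazole (log2 difference -0.30, limma adjusted p = 0.0214, up to 0.0836 with a library left out).

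Of 9 tested classic targets, 2 fell in ivermectin against vehicle. Vim, the intermediate filament gene vimentin, was at 299.7 ± 7.52 FPKM in ivermectin, 395 ± 24.5 FPKM in importazole and 443 ± 34.9 FPKM in vehicle. It changed by -0.56 log2 units (limma adjusted p = 0.00115) and kept its call with each library left out. Vegfa, an angiogenic growth factor gene, was at 40.8, 27.4 and 30.7 FPKM in ivermectin and 49.2, 45.7 and 46.6 FPKM in importazole, with a log2 difference of -0.52 (limma adjusted p = 0.0420) that lost its call in 8 of 9 fits that left out a library (up to 0.128).

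The genes most like Fos in pattern over the 9 libraries, among 7599 genes with a mean of at least 5 FPKM, were Leng1, Romo1 and Ptrf, with Pearson r of 0.978, 0.975 and 0.971. Those most like Jun were Elof1, Phospho1 and Rtn3, with r of 0.958, 0.957 and 0.950. Those most like Egr1 were Apoe, Zbtb12 and Kctd9, with r of 0.924, 0.915 and 0.912. These are the highest of 7599 values each, over libraries that share their group, and are given as a description.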

How the data were processed

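HL-1 mRNA was captured on beads and sequenced on the Ion Proton, per the labels' protocols, and groups and replicate numbers come from the labels. The authors deposited a gene symbol with its FPKM value, per the file headers. STAR, Bowtie2, Bowtie and Cufflinks and the builds mm10 and GRCm38 are named without versions or roles, per the submitters' processing notes. No source used here gives the annotation, the strand use or any filter. FPKM is relative to all mapped fragments, so values of different genes in a library are not independent. Whole reads could not be recovered from them (of 3434 low genes, 0.961% shared the commonest ratio), so depth is unknown and no counting interval is given.

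Rows of the 48 repeated symbols were added together. The 11337 genes that reached 1 FPKM in 3 or more libraries were analysed as log2(FPKM + 1), a scale that understates changes of low genes. One model with group as its term was fitted to the 9 libraries with limma 3.58.1 (trend, robust; R 4.3.3), p-values are two-sided and adjusted by Benjamini-Hochberg over all 11337 genes in each of 3 comparisons, and 0.05 was the threshold. An exact permutation test of 3 libraries against 3 cannot go below 0.1, so none is given. The procedure was tested on simulated data with noise drawn independently for each gene. Recovery was required there only for log2 changes of at least 1, larger than those of the family genes. Spread is the residual SD around group means.

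The members and gene lists were chosen with earlier results of these data known. All 10 members are named. From each list the named genes are up to 4 that passed in any comparison with a mean of at least 5 FPKM, in order of adjusted p, or, where none passed, the 2 most abundant; for Fos, Jun and Egr1 the 3 genes of highest Pearson r are named. One listed gene that passed is not reported here. Markers named by level and the genes of the closing section were chosen after their values were seen. The alternatives were quantile and median-of-ratios scaling, a filter at 5 FPKM or none, pseudocounts of 0.1 and 0.5, only the 6 libraries compared, a replicate block, no trend, and leaving out each library or both that list Yam1 at 0. Replicate numbers were not used to pair samples. Promoters are from RefSeq (GRCm38.p6), and gene positions and UTRs from GENCODE M21 (GRCm38). Figures were drawn with matplotlib 3.10.9 in Python 3.11.15.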

Additional observations from a re-analysis of the deposited data

How the results depend on the processing

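For ivermectin against vehicle, 489 genes, 4 family genes and 13 listed genes passed; these were 211, 2 and 6 with no filter, 195, 2 and 5 when both libraries listing Yam1 at 0 were left out, and 274, 2 and 7 with only the 6 libraries compared. For importazole against vehicle, 256 genes passed, 133 with no filter and 161 without both Yam1 libraries; of the family 0 passed, and 1, Ier3, did with a filter at 5 FPKM, after quantile normalization, after median-of-ratios scaling and with only the 6 libraries compared. For ivermectin against importazole, 388 genes passed, 177 with no filter and 233 without both Yam1 libraries. With a library left out, counts in the same order of comparisons were 243 to 399, 128 to 320 and 177 to 396 genes, 2 to 4, 0 to 1 and 2 to 3 family genes, and 6 to 12, 0 to 0 and 6 to 12 listed genes. The split of calls moved with scaling: importazole against vehicle had 192 higher and 64 lower, against 159 and 117 after quantile normalization and 159 and 118 after median-of-ratios scaling, and ivermectin against importazole had 81 higher and 307 lower, against 191 and 274, and 161 and 280.

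With a library left out, some log2 changes that did not pass took the other sign: against vehicle in ivermectin, Junb ranged from -0.12 to 0.082, Egr1 from -0.022 to 0.19 and Ier2 from -0.095 to 0.24; in importazole, Fos ranged from -0.10 to 0.20, Fosl2 from -0.080 to 0.044 and Jund from -0.12 to 0.039. Fos in importazole was also at -0.0044 after quantile normalization and -0.026 without both Yam1 libraries. The cause was not tested. Jund and Ier3 kept their calls in ivermectin, against vehicle and against importazole, under every alternative run.

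Samples of the same replicate number did not deviate together (r of -0.210 to 0.145 over 9 pairs; 7 of 18 best with their own number). Of all pairs between groups, ivermectin 3 and vehicle 2, both with Yam1 at 0, had the highest correlation, 0.307. With the replicate block, 354, 175 and 257 genes, 3, 0 and 2 family genes and 12, 0 and 10 listed genes passed, in the order above; Fos was the family gene lost (limma adjusted p = 0.0641 against vehicle and 0.0616 against importazole). Fosb and Fosl1, under 1 FPKM, did not meet the filter and were not tested in the main fit. With no filter neither passed in any comparison, and depth is unknown.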

Other observations

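Some listed genes that passed lay under the level set for naming or beyond its number of genes. Maff, a small MAF protein gene, was at 1.01 ± 0.435 FPKM in ivermectin, 2.90 ± 0.152 FPKM in importazole and 2.06 ± 0.285 FPKM in vehicle (SD, n = 3 each). Its difference from importazole was -0.98 log2 units (limma adjusted p = 0.00528), past the threshold with each library left out, and its call against vehicle (limma adjusted p = 0.0460) ended in 8 of 9 such fits. Dusp1, a phosphatase that switches MAP kinases off, was at 2.01 ± 0.540 FPKM in ivermectin, 2.82 ± 0.200 FPKM in importazole and 3.62 ± 0.425 FPKM in vehicle. Its log2 change of -0.63 against vehicle (limma adjusted p = 0.0216) lost its call without vehicle 1, vehicle 3, ivermectin 1 or ivermectin 2 (up to 0.0787). Sik1, a salt-inducible kinase gene, was at 16.0 ± 0.755 FPKM in ivermectin, 18.0 ± 1.70 FPKM in importazole and 21.2 ± 0.667 FPKM in vehicle, with a log2 change of -0.39 against vehicle (limma adjusted p = 0.0195) that lost its call in 5 of 9 fits with a library left out.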
